A study of Homo sapiens with 6 samples.

Results

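Broad Brpf2 peaks, defined as called peaks of 5 kb or more on chromosomes 1 to 22, were chosen by width alone from the peak list of 1 ChIP-seq library. There were 531 of them among 11513 autosomal peaks and 11874 peaks in all, and the 10982 narrower autosomal peaks served for comparison. Chromatin immunoprecipitation with sequencing (ChIP-seq) recovers the DNA bound to a protein with an antibody and counts it along the genome. The cells were RKO, an established line from a human colon carcinoma, which received no treatment and grew under normal conditions, and the antibody was directed against Brpf2. The series holds 6 samples of these cells, 1 per antibody, of which the others (rabbit IgG, H3, H3K4me3, ING5 and ING2) were not analysed here. The Brpf2 sample has no replicate, so no difference could be tested against a spread between samples, and the intervals given for shares and medians cover counting error over peaks of 1 library. Neighbouring peaks share their surroundings and are not independent, so these intervals are too narrow. How many reads lie behind each peak is not in the list, and the depth is unknown.

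Brpf2, also called BRD1, is a scaffold protein that holds a MYST-family histone acetyltransferase together with its small partner subunits, among them ING-family proteins. It carries PHD fingers, a bromodomain and a PWWP domain, modules that bind histone tails or nucleosomes, and its complexes acetylate histone H3. ING proteins bind the trimethylated lysine of H3K4me3, the mark that sits at active promoters. A called peak is a stretch in which the caller found enrichment, and its width also depends on how the caller joins or splits neighbouring stretches. Positions are in hg18, the build of the list, counted from 1. No annotation or genome sequence of that build was used here, so genes at the peaks are not named and no sequence is printed.

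The broad peaks made up 4.61% of autosomal peaks and 12.1% of the bases those peaks cover, 3.64 Mb of 30.0 Mb. Their widths ranged from 5002 to 54699 bp with a median of 6006 bp and quartiles of 5348 and 7325 bp. Most lay close to the limit. There were 264 peaks between 5 and 6 kb, 172 between 6 and 8 kb, 56 between 8 and 10 kb and 39 of 10 kb or more. At the limit, the 5 narrowest members were 5002 to 5015 bp wide, the 5 widest peaks left out were 4995 to 4999 bp wide, and 32 members lay within 100 bp above the limit against 47 peaks within 100 bp below it. The 171 peaks of 5.0 to 5.5 kb and the 280 peaks of 4.5 to 5.0 kb were at a score of 3100 or more in 64.3% and 39.6% of cases, and their median gaps to the nearest peak were 22.1 and 30.0 kb. The limit thus divides a continuous range of widths.

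Most broad peaks carried the score at which values of the list pile up. The score is the authors' value for each peak as their caller gave it, and 3100 is that value, called the ceiling here although a few peaks exceed it. Among broad peaks 394 of 531 (74.2%, exact 95% interval 70.3 to 77.9%) were at or above 3100, of which 383 were at exactly 3100 and 11 above it. The share was 5.28% among narrower autosomal peaks and 8.46% among all autosomal peaks. Width chose the members, and the score is a value of that same caller for that same library, so this describes the members and is no support for them as a group. The share differed step by step with width: 12.9% of peaks of 3 to 4 kb, 37.7% of 4 to 5 kb, 67.0% of 5 to 6 kb and 87.5% of 8 to 10 kb stood at the ceiling. The remaining 137 broad peaks had a median score of 1734, and among them Spearman's rho between width and score was 0.01 (n = 137 peaks of the same library).

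**Figure D1:**
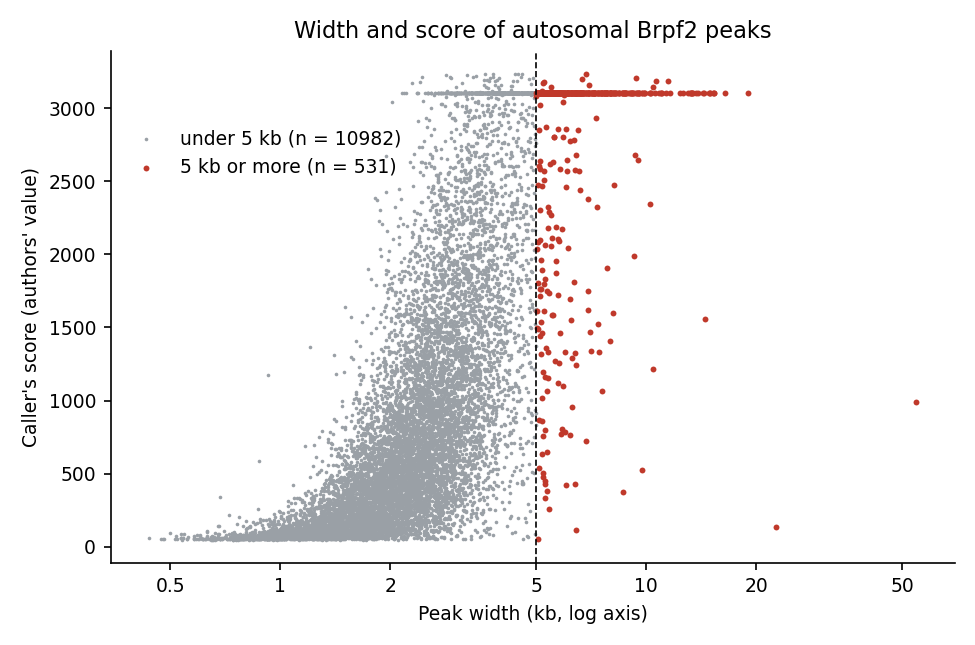
Each point is 1 autosomal Brpf2 peak, with its width in kb (log axis) against the authors' score; red points are the 531 peaks of 5 kb or more and the dashed line marks the limit. The points at 3100 form a line along which 383 broad peaks lie, and the 2 widest peaks of all sit below it, at 993.66 and 135.54.

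The 10 widest broad peaks spanned 14.8 to 54.7 kb on 8 chromosomes. The widest, at chr7:130229276-130283974, was 54.7 kb long and scored 993.66. It ended 14 bp before a second broad peak of 14.3 kb at chr7:130283989-130298266, which scored 3100. The next widest, at chr8:145703293-145725964, was 22.7 kb long and scored 135.54, below the lower quartile of autosomal scores (242). All the other 8 had a score of exactly 3100. They were chr5:141670225-141689199 (18975 bp), chr17:60075450-60091904 (16.5 kb), chr10:31313540-31328886 (15.3 kb) and chr7:27165957-27181302 (15.3 kb). The remaining 4 were chr11:65431343-65446603 (15.3 kb), chr1:33655208-33670162 (14955 bp), chr22:44843018-44857937 (14.9 kb) and chr1:16343785-16358583 (14.8 kb). Between these 10 the surroundings differed: the chromosome 11 peak had 30 other peaks within 500 kb and the widest of all, on chromosome 7, had 6.

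As a share of listed peaks, broad peaks were most frequent on chromosomes 8 and 9. On chromosome 8 they were 49 of 405 peaks (12.1%, exact 95% interval 9.09 to 15.7%) and on chromosome 9 they were 55 of 525 (10.5%, 7.99 to 13.4%). The other 20 autosomes ranged from 2.06% on chromosome 14 (8 of 388) to 6.22% on chromosome 10 (30 of 482). Of their exact intervals 16 held 4.61%, the share over all autosomes, and 4 lay below it (chromosomes 2, 3, 14 and 15). Chromosomes 8 and 9 are part of that share, which was 4.03% without them (427 of 10583). The intervals of chromosomes 2, 3 and 15 held 4.03%, with upper limits of 4.35, 4.07 and 4.49%. That of chromosome 14 lay just below it (upper limit 4.02%). Those of chromosomes 10 and 12 lay above it (lower limits 4.24 and 4.45%). Together chromosomes 8 and 9 held 104 broad peaks, 19.6% of all members, with 8.08% of autosomal peaks. Chromosome 19, the densest in peaks, had 33 of 818 broad (4.03%, 2.79 to 5.62%). Per length it had the most broad peaks, 5.18 per 10 Mb of its span, against 3.94 on chromosome 9 and 3.35 on chromosome 8. Chromosomes 17 (3.82) and 22 (3.71) also had more per 10 Mb than chromosome 8. Over the 22 chromosomes Spearman's rho between the share of broad peaks and the number of peaks per Mb was 0.03 (n = 22). Between the number of broad peaks and of all peaks per unit of length it was 0.67, and these 2 quantities share the same lengths and partly the same peaks.

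**Figure D2:**
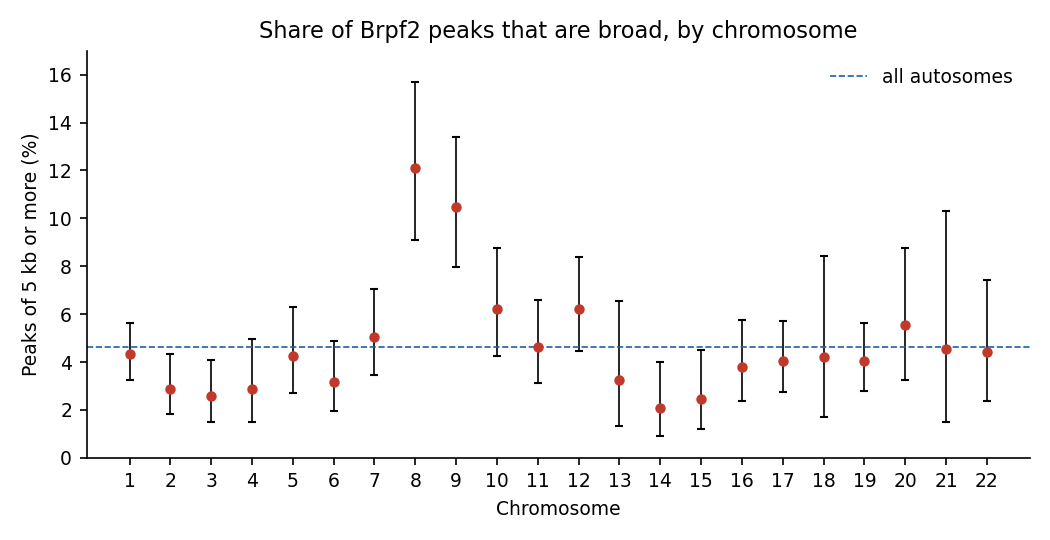
Points give the percentage of Brpf2 peaks on each autosome that are 5 kb or wider, with exact 95% binomial intervals, and the dashed line is the share over all autosomes (4.61%). Chromosomes 8 (12.1%) and 9 (10.5%) stand above the line with their whole intervals.

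On these 2 chromosomes peaks as a whole were wider than elsewhere. With broad ones included, median peak width was 3013 bp on chromosome 8 and 2820 bp on chromosome 9. It was 2318 bp on the other autosomes. Peaks of 4 to 5 kb were 14.3% and 13.3% of their peaks, against 5.71% on the other autosomes. The broad peaks there were also less often at the ceiling: 56 of 104 (53.8%, exact 95% interval 43.8 to 63.7%), against 338 of 427 on the other autosomes (79.2%, 74.99 to 82.91%). Seen from the score, 7.04% of chromosome 8 peaks below 3100 were 5 kb or wider and 4.95% of those on chromosome 9, against 0.916% on the other autosomes. Among peaks at the ceiling the shares were nearer to each other, with 48.0% on chromosome 8 (24 of 50), 53.3% on chromosome 9 (32 of 60) and 39.1% elsewhere (338 of 864).

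Along these chromosomes the broad peaks gathered toward the high-coordinate ends. On chromosome 8, 26 of 80 peaks in the last 10% of its span were broad (32.5%, exact 95% interval 22.4 to 43.89%), against 23 of 325 in the rest (7.08%). On chromosome 9 they were 39 of 171 (22.8%, 16.7 to 29.8%), against 16 of 354 in the rest (4.52%). In these end stretches the median width of all peaks was 4118 bp on chromosome 8 and 3928 bp on chromosome 9, against 2740 and 2374 bp in the rest. In bins of 10 Mb, the one of chromosome 8 that starts at 140 Mb had the highest share, 25 of 71 peaks (35.2%, 24.2 to 47.5%), and 7 of these 25 were at the score ceiling. On chromosome 9, the bin that starts at 130 Mb had 27 of 129 (20.9%, 14.3 to 28.97%), 13 of them at the ceiling. Chromosome 20 showed a like pattern at its end, with 9 of 51 peaks broad in the last 10% of its span (17.6%, 8.40 to 30.9%) and 8 of 255 in the rest (3.14%). Of 221 bins of 10 Mb with at least 20 peaks, 9 had more than 15% of their peaks at 5 kb or more, 5 of them on chromosomes 8 and 9, while 63 bins had no broad peak. The IgG and H3 libraries were not analysed here, so whether a control library differs in the same stretches was not tested.

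Over all autosomes, each divided into 10 equal stretches from its first to its last listed peak, the last stretch held 133 of the 531 broad peaks (25.05%) and 13.6% of all peaks. It held 17.3% of the peaks of 3 to 5 kb and 16.7% of the narrower peaks at the ceiling. In the last stretch 8.50% of peaks were broad (exact 95% interval 7.17 to 10.0%), against 4.45% in the first and 3.92% in the 8 between. Chromosomes 8 and 9 gave 65 of the 133. Without them the last stretch held 68 of 427 broad peaks (15.9%) and 5.18% of its peaks were broad (4.04 to 6.52%), against 4.52% in the first and 3.76% (3.35 to 4.20%) between. These intervals overlap, which does not show that the shares are equal. Within 5 Mb of the outermost listed peak of their chromosome lay 121 broad peaks (22.8%, 19.3 to 26.6%), where 14.9% of all autosomal peaks did. So did 19.8% of the peaks of 3 to 5 kb (18.3 to 21.4%) and 18.1% of the narrower peaks at the ceiling (15.1 to 21.5%). Without chromosomes 8 and 9, 76 of 427 broad peaks lay there (17.8%, 14.3 to 21.8%). Of the narrower peaks of the same chromosomes 14.5% did (13.9 to 15.2%), and these intervals overlap too.

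**Figure D3:**
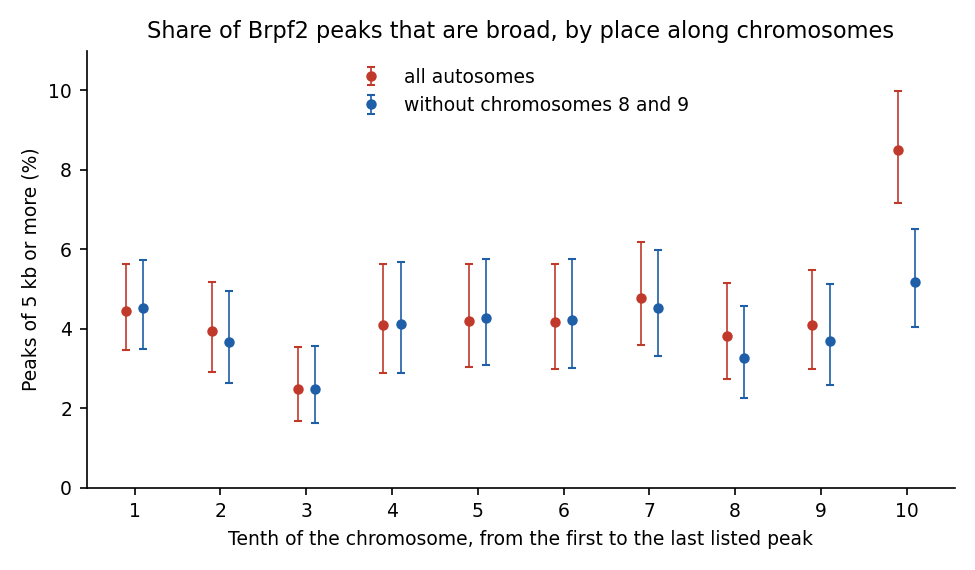
For each of 10 equal stretches from the first to the last listed peak of an autosome, points give the percentage of Brpf2 peaks that are 5 kb or wider with exact 95% binomial intervals, for all autosomes (red) and without chromosomes 8 and 9 (blue). The last stretch is at 8.50% with all autosomes and 5.18% without those.

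Windows of 1 Mb showed where broad peaks lay closest together. The 531 broad peaks fell in 354 windows, of which 260 held a single one and 40 held 3 or more. The fullest window, the one of chromosome 8 that starts at 145000001, held 14 broad peaks among 27 peaks. They covered 117 kb of that window, scored from 135.54 to 3233.06 with a median of 2568, and 4 were at the ceiling. The 13 narrower peaks there had a median width of 3690 bp and none was at the ceiling. Next came chromosome 9 from 139000001 to 140000000 and from 129000001 to 130000000, with 8 broad peaks each among 25 and 20 peaks. Chromosome 11 from 65000001 to 66000000 followed with 6 among 30, covering 60.7 kb, and chromosome 9 from 138000001 to 139000000 with 6 among 20. Chromosome 20 from 60000001 to 61000000 also held 6, among 16 peaks.

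Broad peaks with a low score were few. Of the 531, 15 (2.82%, exact 95% interval 1.59 to 4.62%) scored below the autosomal median of 629.78, where 5741 of the 10982 narrower peaks (52.3%) did. These 15 lay on 5 chromosomes, 11 of them on chromosomes 8 and 9, and 7 had a neighbour within 10 kb. The lowest score, 54.65, belonged to a 5058 bp peak at chr9:129676671-129681728. It was followed by chr9:131288593-131295021 (114.29), the 22.7 kb peak on chromosome 8 described above (135.54), chr1:16840751-16846186 (258.09) and chr9:131296092-131301390 (335.28). The chromosome 9 peaks scoring 114.29 and 335.28 were next to each other, 1070 bp apart, and the chromosome 1 peak had another broad peak 25.8 kb away.

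Broad peaks had closer neighbours than narrower ones. Measured edge to edge, the gap from a broad peak to the nearest listed peak had a median of 18983 bp (exact 95% interval 15.6 to 21.6 kb, quartiles 4.37 and 51.0 kb), against 35.5 kb (34.2 to 36.6 kb) for narrower autosomal peaks. A neighbour within 10 kb was found for 198 of 531 (37.3%, 33.2 to 41.6%), where 23.1% of all autosomal peaks and 22.4% of the narrower ones had one. A neighbour as close as 2 kb stood beside 16.2% of broad and 7.95% of narrower peaks, and 74.8% and 59.8% had one inside 50 kb. The narrower peaks were not uniform in this, since 125 of the 463 peaks under 1 kb (26.998%, 23.004 to 31.3%) had a neighbour within 2 kb, more than among broad peaks. At the other end, 74 broad peaks (13.9%, 11.1 to 17.2%) had no peak within 100 kb, where 21.4% of all autosomal peaks had none. A wide peak reaches nearer to its neighbours by its own length. Midpoint to midpoint the medians were 24.6 kb (21.3 to 26.9 kb) and 38.1 kb (36.7 to 39.2 kb), a smaller difference than edge to edge but in the same direction.

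The neighbour gap was smaller on each side of the broad peaks. On the low-coordinate side the median was 39.2 kb (32.7 to 51.0 kb) against 70.5 kb for narrower peaks, and on the high-coordinate side 39.8 kb (34.2 to 48.1 kb) against 70.4 kb. The wider of the 2 gaps had a median of 86.3 kb (75.5 to 99.1 kb) against 139 kb. Both sides were alike: of 528 broad peaks with a neighbour on both sides, 264 were closer to the lower one and 264 to the higher one. The larger gap was a median 3.87 times the smaller for broad peaks and 3.42 times for narrower ones. A neighbour within 10 kb on both sides was seen for 37 broad peaks (6.97%, 4.95 to 9.48%), against 2.90% of narrower peaks.

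The nearest gap was also smaller within chromosomes and among peaks at the score ceiling, while the wider gap was not smaller on every chromosome. In each of the 22 autosomes the median nearest gap of its broad peaks was below that of its narrower peaks, by 1.39 to 49.7 kb. Measured from midpoint to midpoint this held in 20 of 22. The share with a neighbour within 10 kb was higher for broad peaks in 20 of 22 chromosomes. The median of the wider gap was smaller for broad peaks in 17 of 22 and larger in 5 (3, 4, 15, 16 and 21), there by 1.72 to 149 kb. Among the 580 narrower peaks at or above 3100, the median nearest gap was 41.4 kb (35.3 to 47.2 kb) and 19.3% had a neighbour within 10 kb (16.2 to 22.8%). The 394 broad peaks at the same scores had 21.2 kb (16.7 to 24.1 kb) and 37.6% (32.8 to 42.6%). The 137 broad peaks below the ceiling had 15.4 kb and 36.5%. Without chromosomes 8 and 9 the median gaps of broad and narrower peaks were 19.9 and 34.7 kb.

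**Figure D4:**
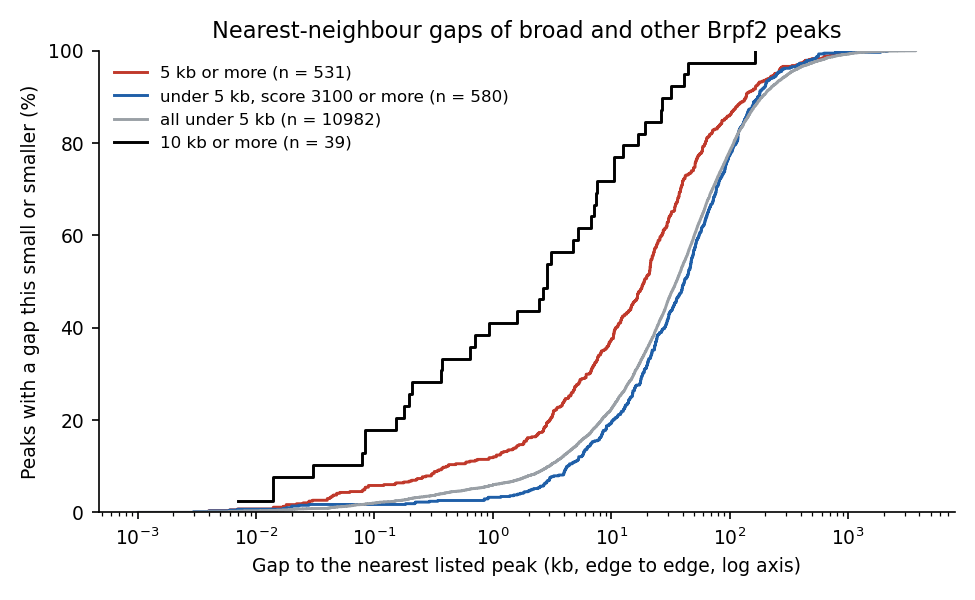
Curves give the percentage of autosomal Brpf2 peaks whose nearest listed peak lies within the gap on the x axis (kb, edge to edge, log axis), for peaks of 5 kb or more, 10 kb or more, all under 5 kb, and those under 5 kb with a score of 3100 or more. The broad peaks reach 37.3% at 10 kb, the narrower ones 22.4% and the narrower ones at the ceiling 19.3%.

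Across bands of width, close neighbours were least frequent at intermediate widths. The share with a neighbour within 10 kb was 37.4% in peaks under 1 kb and 18.6% in peaks of 3 to 4 kb. It was 25% at 4 to 5 kb, 33.0% at 5 to 6 kb, 34.9% at 6 to 8 kb, 41.1% at 8 to 10 kb and 71.8% (28 of 39, exact 95% interval 55.1 to 85.0%) at 10 kb or more. Peaks of 10 kb or more had a median nearest gap, edge to edge, of 2.84 kb (0.372 to 7.41 kb), and 1 of the 39 had no peak within 100 kb. Their own length weighs most in such gaps. Midpoint to midpoint their median was 12.3 kb (8.93 to 21.7 kb), against 23.7 kb (14.2 to 36.4 kb) at 8 to 10 kb.

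**Figure D5:**
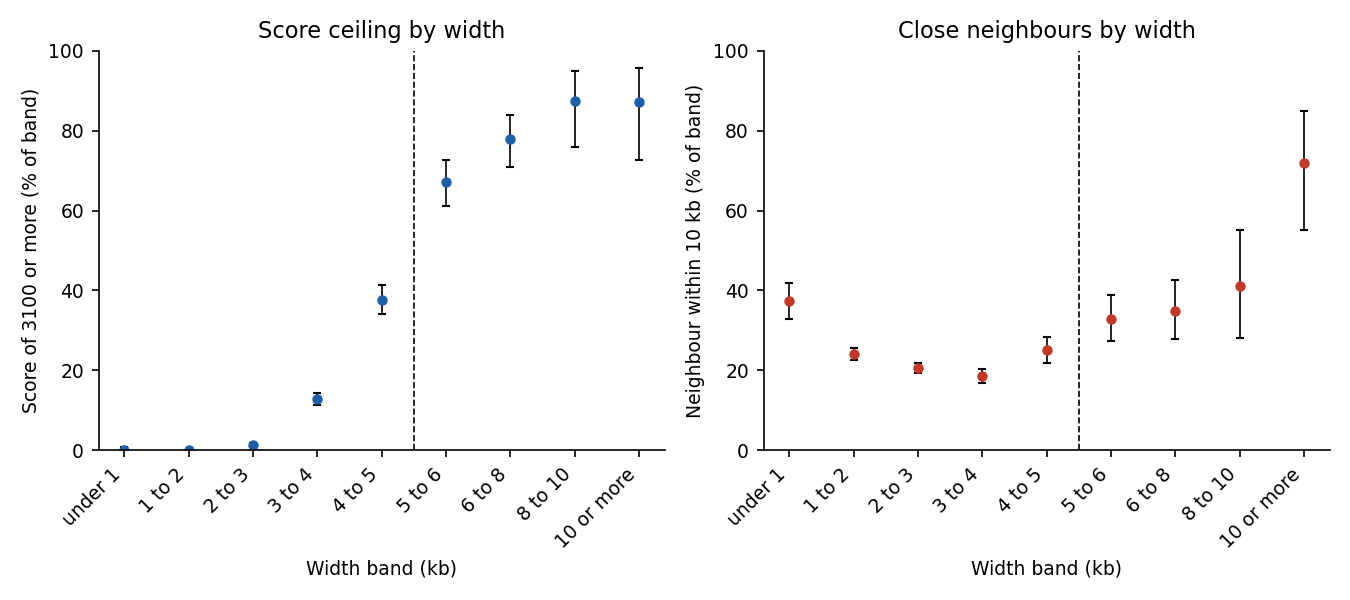
For 9 bands of width in kb, points give the percentage of autosomal Brpf2 peaks at or above a score of 3100 (left) and with another listed peak within 10 kb (right), with exact 95% binomial intervals; the dashed line is the 5 kb limit. The share at the ceiling is 37.7% at 4 to 5 kb and 67.0% at 5 to 6 kb, and the share with a close neighbour is lowest at 3 to 4 kb (18.6%).

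Within 2 kb of the 531 broad peaks lay 92 side peaks, flanking 86 of them, 6 on both sides. Their median width was 2224 bp (quartiles 1256 and 3858 bp) and their median score 177.12 (quartiles 80.6 and 947), and 77 of the 92 scored below the broad peak beside them, most of which stand at the ceiling. At the ceiling were 9 of the 92, and 18 were themselves broad. Of the 926 side peaks of narrower peaks, 88 were at the ceiling and 74 were broad. Those 74 come from the close pairs of a broad and a narrower peak already counted above, seen from the other end. They are thus no separate comparison, and the 88 and the medians given next were taken with them included. Side peaks of narrower peaks were no wider, with a median of 2011 bp and a median score of 372, and those of narrower peaks at the ceiling had 1589 bp and 87.8, with 26 of 28 scoring lower. For the 39 peaks of 10 kb or more there were 19 such side peaks beside 17 of them, with a median score of 131, and 18 scored lower than the peak beside them. The peak at chr10:31313540-31328886 is an example, with a 1104 bp peak scoring 73.22 at 709 bp on one side and a 3400 bp peak scoring 118.39 at 1618 bp on the other. Whether the caller split 1 enriched stretch into such parts was not tested.

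Over all autosomes pooled, a larger share of broad than of narrower peaks stood next to a broad peak, but not on every chromosome. The next listed peak on at least 1 side was broad for 115 of 531 (21.7%, 18.2 to 25.4%), where 8.79% of all autosomal peaks and 8.17% of narrower ones had a broad neighbour. Among narrower peaks at the ceiling it was 12.2% (9.69 to 15.2%). Without chromosomes 8 and 9 the shares were 17.6% for broad peaks and 7.39% for narrower ones. The share was higher for broad peaks in 15 of 22 chromosomes and lower in 7 (6, 13, 14, 15, 16, 18 and 21). On those 7 none of the 78 broad peaks was next to another, and 4.21 to 8.57% of narrower peaks were next to one. These 7 were singled out by this very result, so the count of 0 of 78 sets no upper limit on the share. Where no broad peaks are adjacent, their listed neighbours are all narrower. The share of narrower peaks there thus follows from the number of broad ones and is no separate comparison. Another broad peak lay within 1 Mb of 338 members (63.7%, 59.4 to 67.8%), where 43.3% of all autosomal peaks had one so near. The next listed peak was broad for 48 of the 137 members below the ceiling (27.1 to 43.6%), and for 67 of the 394 at the ceiling (13.4 to 21.1%). This split was not made without chromosomes 8 and 9, whose broad peaks were less often at the ceiling, so score and chromosome cannot be told apart in it. The nearest peak, broad or not, stood at the ceiling for 80 members (15.1%, 12.1 to 18.4%), where it did for 8.82% of all autosomal peaks. Peaks at the ceiling were alike in this, with 13.3% of narrower ones (10.6 to 16.3%) and 13.5% of broad ones (10.2 to 17.2%).

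In the list 416 broad peaks had a narrower peak or the end of the chromosome's list on both sides, and the other 115 formed 53 runs without a narrower peak between. Of these runs 46 had 2 peaks, 5 had 3 and 2 had 4. The 62 gaps within runs had a median of 20.3 kb, and 6 were of 1 kb or less. One run of 4 was on chromosome 8 from 145182190 to 145233720, with gaps of 1.83 to 15.1 kb and 1 peak at the ceiling. The other was on chromosome 9 from 139200269 to 139260228, with gaps of 4.76 to 12.1 kb and 2 at the ceiling. The tightest run of 3 covered chromosome 2 from 36635479 to 36660476, where 24.1 of 24.998 kb lay inside the peaks and the gaps were 28 and 888 bp.

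Surroundings of broad peaks were somewhat denser in peaks. A broad peak had a median of 10 other peaks within 500 kb of its midpoint (exact 95% interval 9 to 11, quartiles 5 and 18), against 8 for narrower peaks (quartiles 4 and 14) and 7 for narrower peaks at the ceiling. The median was higher for broad peaks in 15 of 22 chromosomes, equal in 6 and lower in 1. Crowded places with 20 or more peaks within 500 kb held 113 members (21.3%, 17.9 to 25.01%), where they held 12.8% of all autosomal peaks. Without chromosomes 8 and 9 the share was 17.8% of broad peaks (14.3 to 21.8%) and 12.6% of narrower ones (11.96 to 13.3%). The share was 29.9% (22.41 to 38.3%) for broad peaks below the ceiling and 18.3% (14.6 to 22.45%) for those at it. These intervals overlap only between 22.41 and 22.45%. On chromosomes 8 and 9, 56 of 104 broad peaks were at the ceiling, against 338 of 427 on the other autosomes. The split by score was not made without these chromosomes, so score and chromosome cannot be told apart in it. Over the 531 members Spearman's rho between width and the number of surrounding peaks was 0.07.

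The share of peaks that were broad was highest where peaks were densest. It was 3.02% among the 298 peaks with no other peak within 500 kb (9 of 298), 3.48% with 1 to 4 others, 4.13% with 5 to 9 and 4.27% with 10 to 14. It was 6.03% with 15 to 19, 5.59% with 20 to 24 and 9.56% with 25 or more (74 of 774, exact 95% interval 7.58 to 11.9%). The share of peaks at the ceiling lay between 6.38% and 10.98% in the same classes. Among ceiling peaks alone, 42.1% were broad with no other peak around (8 of 19) and 34.2% with 1 to 4 others (80 of 234). The share was 37.2% with 5 to 9, 39.5% with 10 to 14 and 47.2% with 15 to 19. It was 58.7% with 20 to 24 (27 of 46) and 52.9% with 25 or more (45 of 85), so it did not rise at every step. These shares of ceiling peaks were not computed without chromosomes 8 and 9. The densest class came from 11 chromosomes, and chromosomes 8 and 9 weighed in it: without them 46 of 690 peaks with 25 or more others around were broad (6.67%, 4.92 to 8.79%), against 5.15% with 15 to 24 (4.19 to 6.26%) and 3.55% with 14 or fewer (3.16 to 3.98%).

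Some broad peaks nonetheless stood far from any other. The most isolated was chr15:35176945-35182486, 5.54 kb wide with a score of 3100, whose nearest peak was 969 kb away. It was followed by chr22:14568759-14573933 (889 kb, the first peak listed on its chromosome, score 1892.03), chr12:76857808-76865487 (873 kb), chr5:66334918-66344356 (856 kb) and chr1:157245949-157255201 (762 kb). The last 3 scored 3100 and the last 2 were over 9 kb wide, at 9.44 and 9.25 kb. The most crowded were chr19:1357184-1363282 with 43 other peaks within 500 kb, chr19:1117309-1125755 with 40, and chr8:145182190-145188735 and chr19:1198429-1204806 with 38 each. The fifth was chr11:65020623-65030148 with 37. On chromosome 8 the surrounding peaks included 15 broad ones, and on chromosome 19 there were 2 or 3 around each.

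Intervals that hold the HOX clusters, sets of genes for body-axis identity, were placed on hg18 from general knowledge and not checked against an annotation. In that of HOXA on chromosome 7, 1 of 10 peaks was broad, the 15.3 kb peak at chr7:27165957-27181302, and in that of HOXB on chromosome 17, 1 of 12, a 5.70 kb peak at chr17:44041732-44047430, both with a score of 3100. The intervals of HOXC and HOXD had 7 and 8 peaks, the widest 3189 and 2395 bp. On chromosome 6 from 26 to 34 Mb, where histone genes and the major histocompatibility complex lie, 9 of 165 peaks were broad (5.45%, exact 95% interval 2.52 to 10.1%). The share over all autosomal peaks, 4.61%, lies inside the exact interval of the chromosome 6 region. It also lies inside those of the HOX regions, which have 7 to 12 peaks each and upper limits of 36.9% or more. These are too wide to tell whether the HOX shares differ from it. The 9 on chromosome 6 covered 67.2 kb, 8 were at the ceiling (74.2% of all broad peaks were), and the widest was chr6:30755851-30767440 at 11.6 kb.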

How the data were processed

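ChIP-seq peaks of 1 Brpf2 sample were used. Peak calling was done by the authors, with MACS per the peak names in the deposited file. The submitters' processing notes list BWA, SAMtools, bedtools and hg18 but give no version or role for any of them. Which control library the caller had, and with what settings, is not given in the sources used here. Each peak has a deposited score, the authors' own value on an unstated scale, and its start and end are the other columns. The 2 peaks that start before position 1 were kept. Where a caller joins or splits enriched stretches, widths and gaps change with it.

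From these, gaps to the listed neighbours, numbers of peaks around each midpoint and place between the first and last listed peak were computed with Python 3.11.15, pandas 2.3.3 and scipy 1.17.1. Shares have exact Clopper-Pearson 95% intervals and medians exact order-statistic 95% intervals. No test between groups was run, since there is 1 sample. The code was checked on simulated data. Named peaks are the 10 widest, the 5 of lowest score, the 5 most isolated, the 5 most crowded, the fullest windows of 1 Mb and runs, and those in the named intervals. Members, lists and measures were chosen with earlier results of these data known. The accounts of chromosomes 8, 9 and 20, of 10 stretches per chromosome and of side peaks were added after the values were seen. The RefSeq tables given are of GRCh38.p14 and were not used. Alternatives changed the width limit, the score minimum, joining, the chromosomes used and each distance. Planned work on promoters, genes and sequence needed an hg18 genome and was not run.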

Additional observations from a re-analysis of the deposited data

Results flagged for a closer look

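Chromosome X lies outside the autosomal comparison and also held broad peaks: 9 of its 350 peaks (2.57%, exact 95% interval 1.18 to 4.83%) were 5 kb or wider. The autosomal share, 4.61%, lies inside this interval. They were 5107 to 17911 bp wide, scored from 351.4 to 3162.29, and 5 were at or above 3100. No control library was analysed here against which to set them.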

How the results depend on the processing

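Of 90 alternatives, 13 changed the comparison group alone, so that the value of the broad peaks was the same by construction. Of the other 77, 35 stayed within the counting interval (the number of peaks within 1.5 times, the share of length within 10% of its value), 42 moved further and 0 reversed. With width limits of 4, 8 and 10 kb there were 1263, 95 and 39 broad peaks, covering 22.96%, 3.50% and 1.84% of all peak length. At these limits 53.0%, 87.4% and 87.2% were at the score ceiling, and 30.2%, 53.7% and 71.8% had a neighbour within 10 kb. Their median nearest gaps were 24.8, 7.53 and 2.84 kb, their wider gaps 104, 70.3 and 40.6 kb, and 32.7%, 8.42% and 15.4% were next to another peak past the same limit. At 8 kb the median number of peaks within 500 kb was 8, equal to that of narrower peaks. In all other alternatives that compare them, broad peaks kept their direction from narrower ones.

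With peaks at or above the median score alone, 19.6% of broad peaks had a neighbour within 10 kb, against 9.60% of narrower ones. Their median nearest gap was 42.0 kb against 76.6 kb, and the wider gap 205 kb against 315 kb. Within 500 kb lay 5 peaks against 4, and 30.6% against 15.2% were next to a broad peak. Broad peaks then covered 18.3% of the length. Joining peaks within 1 kb gave 64.7% at the ceiling, 28.3% with a neighbour within 10 kb, a gap of 23.1 kb, 25.7% next to a broad region and 14.6% of the length. Without chromosomes 8 and 9, added after seeing the data, the values were 79.2% at the ceiling, 17.6% next to a broad peak, 15.9% in the last stretch of the chromosomes and 10.9% of the length. Neighbour distances of 2 and 50 kb gave 16.2% and 74.8%, midpoints a gap of 24.6 kb, and 100 kb and 1 Mb on each side 3 and 17 peaks. Where no value shows the cause, the cause was not tested.

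No paired analysis was possible because 1 sample was used. With no replicate, a feature of this library and one of these cells cannot be told apart. Depth is unknown, so how far widths depend on it was not tested. No other comparison group was run for the number of broad peaks and their share of the length, nor ceiling peaks for the share at the ceiling.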

Other observations

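Joining peaks whose edges lay within 1 kb changed which stretches counted as broad. It left 11135 autosomal regions, 623 of them 5 kb or wider. Of these, 468 were single listed peaks, 57 held a listed broad peak with 1 or more others, and 98 reached 5 kb by joining narrower peaks alone. Regions of 10 kb or more rose in number from 39 to 51. The widest became 69.0 kb, from 2 broad peaks on chromosome 7 (130229276 to 130298266). Next was a region of 26.5 kb on chromosome 2 from 36634024 to 36660476, made of 4 listed peaks. On chromosome 21, 3 peaks joined to 18.1 kb from 42234883 to 42253017.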
